A study of Mus musculus with 6 samples.

Results

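Adipose tissue releases proteins that act on other cells, and 8 genes for such proteins were followed in interscapular brown fat, the heat-producing depot between the shoulder blades. The genes were taken by name as adipokines and secreted proteins, with reads summed over both flow cells and all transcripts of a gene. They are Adipoq, Retn, Nrg4, Rbp4, Hp, Cfd, Pltp and Apoe, which make up 8 of the 8129 genes with reads and 8 of the 2093 genes tested. The cold group comprised 3 male wild type C57BL/6N mice, 20 weeks old, kept singly at 4 °C over 24 h. The control group comprised 3 further mice of that strain, also 20 weeks old and labelled ctrl. A light cycle of 12 h is given for all 6. The treatment text stands on all 6 records, so the groups come from the titles. As temperature of the control mice the labels give only that of husbandry, 22 to 24 °C. Whether control mice were caged singly is not given, so cold and single caging cannot be told apart. RNA with a poly(A) tail was turned into full-length cDNA by the TeloPrime method, which selects capped molecules, amplified over 27 PCR cycles and read by nanopore sequencing on 2 flow cells per library. The extraction text names eWAT, a white fat depot, while tissue and source labels give brown fat.

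Adiponectin, encoded by Adipoq, is a hormone released by adipocytes that acts on liver and muscle through the receptors Adipor1 and Adipor2. Resistin, encoded by Retn, is an adipocyte hormone in mice that opposes insulin action, and neuregulin 4, encoded by Nrg4, is released by brown fat and binds ErbB receptors. Retinol binding protein 4 (Rbp4) carries vitamin A in blood, haptoglobin (Hp) binds free haemoglobin, and complement factor D (Cfd), also called adipsin, is the serine protease that starts amplification in the alternative complement pathway. Phospholipid transfer protein (Pltp) moves lipids between lipoproteins, and apolipoprotein E (Apoe) is the ligand by which lipoprotein remnants are taken up. Several of these proteins are also made elsewhere, Rbp4, Hp and Apoe in liver and Apoe in macrophages.

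Levels are normalised read counts in CPM, the usual counts-per-million unit, with libraries scaled by TMM (trimmed mean of M-values, a correction for composition). Changes are log2 cold minus control with their standard error (SE), tested by the quasi-likelihood test of edgeR over all 2093 genes with Benjamini-Hochberg adjustment and called at an adjusted p under 0.05. Cold libraries held 2923005 to 2982713 reads and control libraries 1014847 to 1849431, so every cold library was deeper than every control library. Depth and treatment thus go together, and scaling does not part them in which genes were detected or passed the low-count limit. In the run at equal depth 4 of the 8 genes were called lower and 1 higher, and Rbp4 and Nrg4 were not tested. A count of 3 reads stands for 1.01 to 1.03 CPM in cold libraries and for 1.62 to 2.96 CPM in control libraries before TMM scaling. Reads on transcripts over 3000 nucleotides made up 6.32 to 6.59% of cold libraries and 4.33 to 4.63% of control libraries, without overlap. The transcripts that held at least 1% of the reads of one of the 8 genes are 721 to 2226 nucleotides long, and the part of this length difference in their changes was not tested. On how the samples relate to each other, the labels say only that each is a separate mouse.

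Markers of brown adipocytes summed to 13993 to 15018 CPM over 14 genes in cold libraries and to 14394 to 19172 CPM in control libraries. Of the 8 brown adipocyte markers tested, 2 were called higher, 2 lower and 4 were not called, with a median log2 change of 0.01. Ucp1, the uncoupling protein of heat production, was among those not called (log2 change -0.13, adjusted p = 0.475). The sum of 8 general adipocyte markers was 60388 to 67116 CPM in cold libraries and 42206 to 47636 CPM in control libraries, and its part in the results was not tested. Of the 7 of them tested, Lpl (log2 change 1.95) and Cidec were called higher and 5 were not called, with a median log2 change of 0.11. The sum therefore carries the rise of Lpl and by itself is no measure of adipocyte RNA. Of 10 white adipocyte markers 6 had no reads, and the sum was 3.95 to 17.2 CPM in cold and 0 to 3.25 CPM in control libraries, also not tested. All 7 hepatocyte markers, Alb among them, had 0 reads in every library. Macrophage markers, relevant to Apoe, summed to 54.9 to 124 CPM in cold and 57.0 to 90.4 CPM in control libraries over 12 genes, with Adgre1, Cd68, Csf1r, Mrc1 and Cd163 at 0. Skeletal muscle markers were uneven, with 211, 3028 and 13994 CPM in cold libraries 4, 11 and 15 and 130 to 958 CPM in control libraries. Without cold 15, the library highest in them, 6 of the 8 genes were called lower and 1 higher, as with it. Over all genes 603 were called in that run, against 695 with cold 15. The 6 include Rbp4 and Nrg4, which in the main fit passed the low-count limit only through control, so their calls are no support. Cold 11, at 3028 CPM, stayed in that run, and the part of muscle tissue in the changes was not tested. Neutrophil and lymphocyte markers summed to at most 1.34 CPM, and the sums for blood, endothelium, fibroblasts and Schwann cells overlapped between the groups.

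Of the 8 genes, 6 were called lower in the cold, 1 was called higher and 1 did not pass the test. Over all tested genes 33.2% were called, 18.1% higher and 15.1% lower. The median log2 change of the 8 genes was -1.07, against 0.04 over all tested genes. Rbp4 and Nrg4 passed the low-count limit only through the control group, and genes admitted in that way had to differ. Among the 6 genes that reached it in all 6 libraries, 4 fell, 1 rose and 1 did not pass, with a median of -0.83. Of these 6 genes, groups did not overlap for the 4 that fell and for the 1 that rose. Of all tested genes, 21.8% lay wholly lower and 26.0% wholly higher in the cold. Groups did not overlap for Rbp4 and Nrg4 either, but admission through control alone favoured this, so it is no support for a fall. In bulk tissue, fewer cells of a type and less RNA per cell cannot be told apart.

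**Figure D1:**
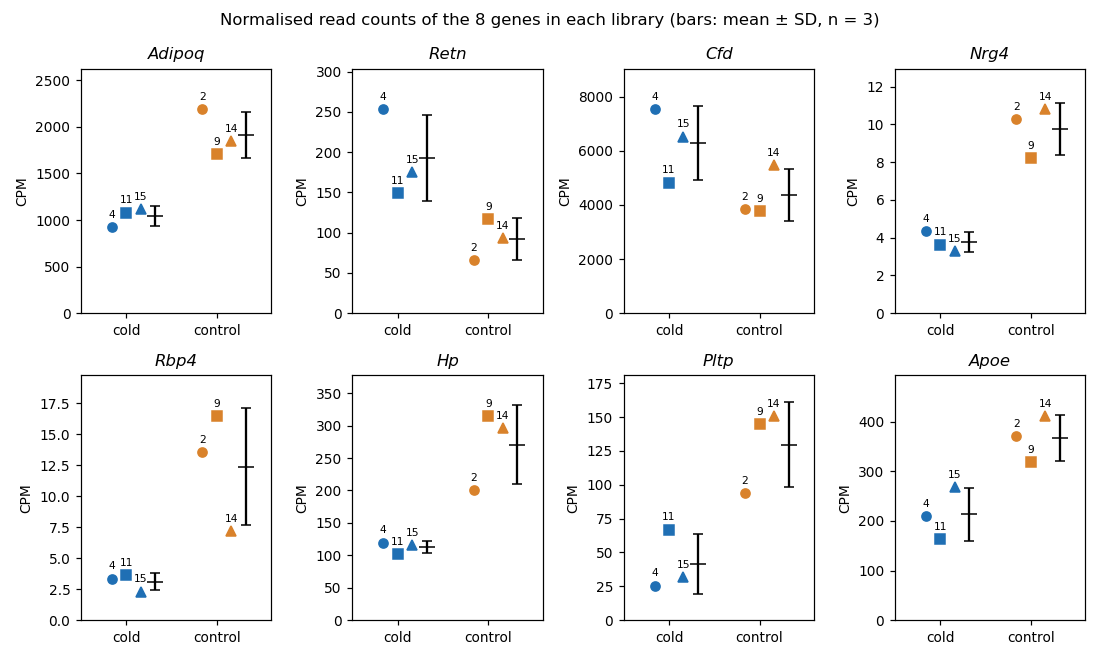
Each panel plots normalised read counts (CPM, linear axis from 0) of 1 gene in the 3 cold libraries, left, and the 3 control libraries, right; numbers are mouse numbers and black bars mean ± SD. Only Cfd has overlapping groups, since cold 11 at 4829 CPM lies under control 14 at 5474 CPM.

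Among the hormones, adiponectin mRNA fell and resistin mRNA rose. Adipoq (ENSMUSG00000022878, GRCm38 chromosome 16 from 23146536 to 23158028) had 927, 1081 and 1122 CPM in cold libraries 4, 11 and 15, against 2188, 1706 and 1847 CPM in control libraries 2, 9 and 14. All 3 cold libraries were low and lay within a narrow band. The means were 1043 ± 103 CPM in the cold and 1914 ± 248 CPM in control (SD, n = 3 each), a log2 change of -0.88 ± 0.16 (adjusted p = 0.00220), or 1.83-fold lower.

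Retn (ENSMUSG00000012705, chromosome 8 from 3655770 to 3660110) had 253, 150 and 175 CPM in the same cold libraries, against 66.0, 117 and 93.0 CPM in control. Cold mouse 4 stood highest, and the lowest cold library, 11, lay above the highest control library, 9. The means were 193 ± 53.9 CPM in the cold and 92.0 ± 25.6 CPM in control, a log2 change of 1.07 ± 0.27 (adjusted p = 0.0121), or 2.10-fold higher. Without cold mouse 4 the change was 0.81 and the call was lost (adjusted p = 0.0639). The related resistin-like gene Retnla had 2 reads in cold and 4 in control libraries, and Retnlb and Retnlg had none.

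Nrg4 (ENSMUSG00000032311, chromosome 9 from 55220222 to 55326844) rested on few reads, 13, 11 and 10 in cold libraries and 19, 8 and 18 in control libraries. Scaled for depth these were 4.36, 3.64 and 3.29 CPM in the cold, against 10.3, 8.22 and 10.8 CPM in control. The log2 change was -1.39 ± 0.33 (adjusted p = 0.00879), with a 95% interval from -2.12 to -0.65. Nrg4 passed the low-count limit only through the control group and so had to differ, and its p-value cannot support a fall. DESeq2 gave -1.42 without a call (adjusted p = 0.0568).

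Of the 2 carrier proteins, the mRNA of Hp fell, while for that of Rbp4 the test cannot decide. Rbp4 (ENSMUSG00000024990, chromosome 19 from 38116629 to 38125281) had 10, 11 and 7 reads in cold libraries, against 25, 16 and 12 in control libraries. That is 3.36, 3.64 and 2.31 CPM in the cold and 13.5, 16.4 and 7.20 CPM in control. The log2 change was -1.94 ± 0.40 (adjusted p = 0.00406). Rbp4 too passed the low-count limit only through the control group, so its p-value cannot support a fall. Control mouse 14 was the lowest of its group and came closest to the cold libraries.

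Hp (ENSMUSG00000031722, chromosome 8 from 109575128 to 109579172) had 120, 102 and 116 CPM in cold libraries 4, 11 and 15, against 201, 314 and 296 CPM in control libraries 2, 9 and 14. The cold libraries lay close together, and control mouse 2 stood under the other two. The means were 113 ± 9.35 CPM in the cold and 270 ± 61.0 CPM in control, and the log2 change was -1.26 ± 0.22 (adjusted p = 0.00164), or 2.40-fold lower.

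Cfd (ENSMUSG00000061780, chromosome 10 from 79890853 to 79892655) held 76782 of the 104026 reads of the 8 genes, with no correction for length. It had 7533, 4829 and 6530 CPM in the cold, against 3858, 3777 and 5474 CPM in control, so that cold 11 lay inside the control range. The means were 6297 ± 1367 CPM in the cold and 4370 ± 957 CPM in control, and the log2 change of 0.53 ± 0.20 did not pass (adjusted p = 0.0618, 95% interval 0.09 to 0.96). The call turned on the setting: Cfd was called higher without cold mouse 11 (0.69, adjusted p = 0.0288) and without control mouse 14 (0.69, adjusted p = 0.0298). It was also called with library totals in place of TMM, with no count filter and on flow cell 2 alone.

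The mRNAs of both lipid-binding proteins fell as well. Pltp (ENSMUSG00000017754, chromosome 2 from 164839518 to 164857711) had 25.5, 66.9 and 31.95 CPM in cold libraries 4, 11 and 15, against 93.6, 145 and 151 CPM in control libraries 2, 9 and 14. Cold 11 was the highest of its group and still under each control library. The log2 change was -1.64 ± 0.35 (adjusted p = 0.00491), or 3.12-fold lower, and it was -2.16 without cold 11. Exons of Pltp share 495 bases with those of Ctsa on the opposite strand, a gene with 179 reads against 940 for Pltp.

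Apoe (ENSMUSG00000002985, chromosome 7 from 19696109 to 19699188) had 209, 163 and 269 CPM in the cold, against 371, 319 and 411 CPM in control. The means were 214 ± 53.1 CPM in the cold and 367 ± 46.4 CPM in control, a log2 change of -0.78 ± 0.22 (adjusted p = 0.0211), or 1.72-fold lower. Its call was lost without control 14 (-0.72, adjusted p = 0.0604), cold 4 (-0.79, adjusted p = 0.0680) or cold 11 (-0.61, adjusted p = 0.0962). Apoc1, which lies next to Apoe in the same gene cluster, had 822 ± 107 CPM in the cold and 1096 ± 187 CPM in control (log2 change -0.41 ± 0.18, adjusted p = 0.105).

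**Figure D2:**
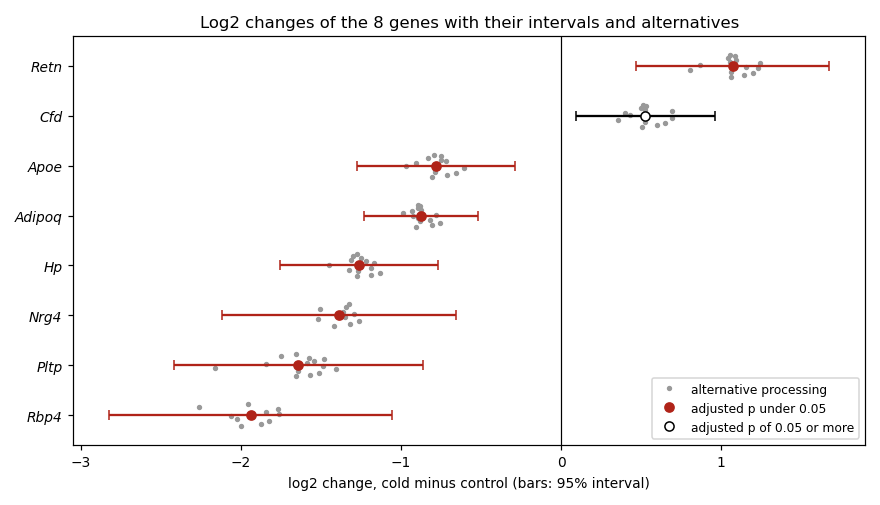
Log2 change, cold minus control, of each gene with its 95% interval (large points, red where adjusted p was under 0.05); small grey points are the values under alternative processing. Retn and Cfd lie to the right of 0 and the other 6 genes to the left under every alternative run that gave a value.

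Read numbers of 2 genes within a library can be set against each other without any scaling between libraries, in ratios chosen after the values were seen. For each 100 Adipoq reads there were 27.3, 13.8 and 15.6 Retn reads in cold libraries 4, 11 and 15, against 3.02, 6.87 and 5.03 in control libraries 2, 9 and 14. For Cfd the ratio was 813, 447 and 582 reads in the cold, against 176, 221 and 296 in control. Neither ratio overlapped between the groups. For Retn this had to follow, since Retn lay wholly higher and Adipoq wholly lower in the cold. Cfd by itself overlapped, and its ratio also carries the fall of Adipoq. The Apoe ratio overlapped, at 22.6, 15.1 and 24.0 reads in the cold and 16.9, 18.7 and 22.2 in control, as did those of Hp and Pltp.

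**Figure D3:**
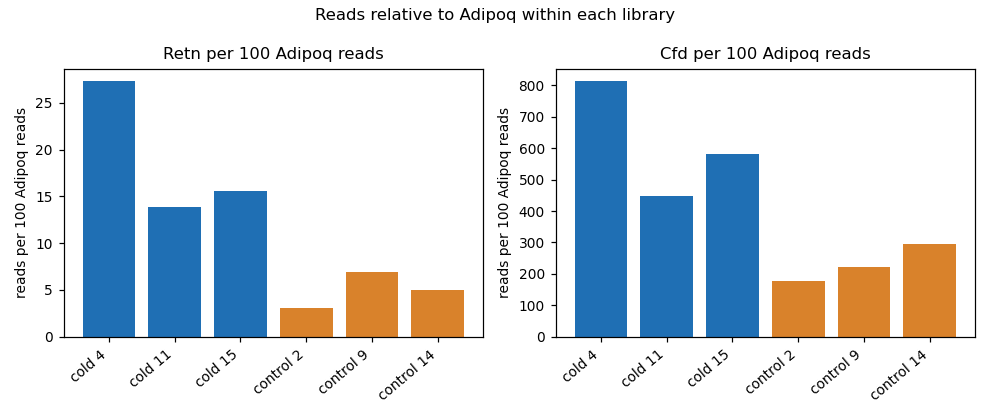
Bars give the reads of Retn, left, and Cfd, right, for each 100 Adipoq reads in the same library, with cold libraries in blue and control libraries in orange. The lowest cold bars, 13.8 and 447, stand above the highest control bars, 6.87 and 296. Both ratios carry the fall of Adipoq and are no separate result.

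The deposited counts assign long reads to annotated transcripts, and 25 transcripts of the 8 genes had reads. How reads that match several transcripts were placed is not given, and error of assignment between closely similar transcripts was not measured. Of these, 19 held at least 1% of the reads of their gene, and 11 had enough reads to be tested. Of the 11, Rbp4-201, Pltp-202 and Apoe-205 passed the low-count limit only through the control group and so had to differ, and they are given by their values without a test. Among the other 8, which reached it in all 6 libraries, 5 fell, 1 rose and 2 did not pass, where 32.7% of all tested transcripts were called, 17.4% higher and 15.3% lower. Adipoq-201 was the only Adipoq transcript with reads, and Hp-201 held 99.9% of Hp reads and Retn-201 98.8% of Retn reads. Retn-202, with the same coding length of 342 bases, runs on into the last intron of Retn-201 and ends there. It had 13, 6 and 5 reads in cold libraries and 2, 0 and 0 in control libraries, too few for a test.

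Apoe was read mainly as Apoe-206 and Apoe-201, which share the coding length of 933 bases and start at 19699188 and 19699052. Apoe-206 held 70.7 ± 3.15% of Apoe reads in the cold and 68.7 ± 2.25% in control, and Apoe-201 held 26.5 ± 2.01% in the cold and 27.5 ± 0.909% in control (SD, n = 3 each). Apoe-206 fell by 0.74 ± 0.23 (adjusted p = 0.0277) and Apoe-201 by 0.84 ± 0.23 (adjusted p = 0.0150) on the log2 scale. Apoe-205, whose annotated start at 19698407 lies within an intron of the others, held 2.08% of the reads, with 5.04, 3.64 and 2.64 CPM in cold libraries 4, 11 and 15, against 8.65, 15.4 and 6.00 CPM in control libraries 2, 9 and 14. The division of reads over transcripts was tested for Apoe, Pltp and Cfd, and it was not called for any of them by diffSpliceDGE (in that order, unadjusted p = 0.645, 0.951 and 0.994, adjusted p = 1.00 each), where 1.48% of 539 genes were called.

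Pltp-201 held 93.9% of Pltp reads and Pltp-202 5.53%. They have the same coding length of 1479 bases, and Pltp-202 starts at 164857542 inside the intron that follows the first exon of Pltp-201. Pltp-201 fell by 1.63 ± 0.34 on the log2 scale (adjusted p = 0.00373). Pltp-202 had 5, 10 and 2 reads in cold libraries, against 11, 8 and 16 in control libraries.

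Nrg4 reads were spread over 6 transcripts. Only Nrg4-213 among its transcripts with reads is annotated as protein-coding, and it held 35 of 79 reads, or 44.3%. In cold libraries 4, 11 and 15 it had 7, 2 and 6 of 13, 11 and 10 reads, against 9, 4 and 7 of 19, 8 and 18 in control libraries. Nrg4-209, with no coding sequence in the annotation, held 25.3% of Nrg4 reads, and Nrg4-211, annotated as a target of nonsense-mediated decay, held 20.3%. None of the 6 had enough reads for a test, so Nrg4 was tested only over all of them together. Exons of Nrg4 share 368 bases with Fbxo22 on the opposite strand, a gene with 2 reads.

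Rbp4-201 held 57 of 81 reads, and Rbp4-202, which has another first exon that starts at 38124828, held the other 24. Rbp4-201 had 8, 9 and 4 reads in cold libraries, against 17, 10 and 9 in control libraries. Its coding length is 735 bases, that of Rbp4-202 603 bases.

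Cfd-202 lacks 3 bases at the start of the second exon, which begins at 79891459 in place of 79891456, so that its coding length is 774 bases, against 777 in Cfd-201. The stretches below run over the end of the first exon, at 79890980, into the second and are shown because these 3 bases, in capitals, are what parts the coding sequences of the 2 transcripts.
Cfd-201: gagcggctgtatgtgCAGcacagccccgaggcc
Cfd-202: gagcggctgtatgtgcacagccccgaggcc
Cfd-202 held 1.94, 1.80 and 2.16% of Cfd reads in the cold, against 2.76, 1.80 and 1.89% in control, with overlap between the groups. Cfd-202 is also annotated with an earlier end, at 79892607 in place of 79892655. Neither transcript passed by itself (Cfd-201 0.53 ± 0.19, adjusted p = 0.0537, and Cfd-202 0.42 ± 0.26, adjusted p = 0.234).

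**Figure D4:**
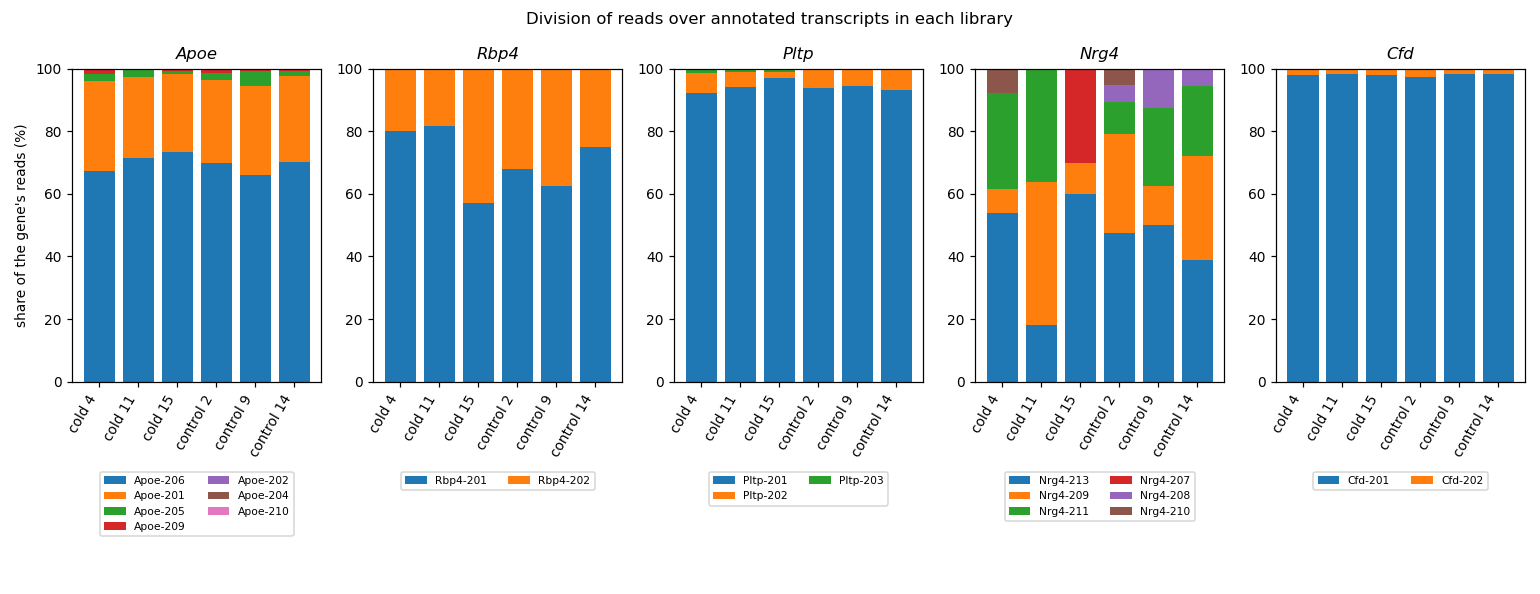
Stacked bars give the share (%) of the reads of each gene held by each annotated transcript, with the 3 cold libraries left of the 3 control libraries. Apoe-206 holds 66.1 to 73.4%, Pltp-201 92.1 to 96.9% and Cfd-201 97.2 to 98.2% of reads over the 6 libraries, while Nrg4-213, on 8 to 19 Nrg4 reads, is lowest in cold 11, at 18.2%.

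The bases just before the annotated start are shown for 4 genes, Retn, which rose, Cfd, which had the higher mean in the cold without passing the test, and Adipoq and Pltp, which fell. Each is the stretch of 250 bases before the start site on the strand of the gene, from RefSeq on GRCm38.p6, at chr8:3655520-3655769 (plus strand) for Retn, chr10:79890603-79890852 (plus) for Cfd, chr16:23146286-23146535 (plus) for Adipoq and chr2:164857709-164857958 (minus) for Pltp. Capitals mark matches, on either strand, to the TATA box TATAAA, the CCAAT box or the nuclear receptor half-site AGGTCA.
Retn: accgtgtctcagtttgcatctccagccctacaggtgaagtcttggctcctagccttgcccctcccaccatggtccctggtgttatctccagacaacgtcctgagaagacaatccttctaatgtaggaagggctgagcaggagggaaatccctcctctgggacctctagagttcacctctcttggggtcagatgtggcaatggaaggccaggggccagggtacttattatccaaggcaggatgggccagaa
Cfd: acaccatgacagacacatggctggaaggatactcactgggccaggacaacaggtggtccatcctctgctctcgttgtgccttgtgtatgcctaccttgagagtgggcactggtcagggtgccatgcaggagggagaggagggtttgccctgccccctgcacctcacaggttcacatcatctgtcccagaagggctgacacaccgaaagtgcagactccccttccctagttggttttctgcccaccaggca
Adipoq: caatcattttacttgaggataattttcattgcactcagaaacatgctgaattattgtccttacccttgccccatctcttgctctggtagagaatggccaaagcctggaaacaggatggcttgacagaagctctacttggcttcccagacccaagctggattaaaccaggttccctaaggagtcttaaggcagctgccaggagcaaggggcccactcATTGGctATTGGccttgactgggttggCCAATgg
Pltp: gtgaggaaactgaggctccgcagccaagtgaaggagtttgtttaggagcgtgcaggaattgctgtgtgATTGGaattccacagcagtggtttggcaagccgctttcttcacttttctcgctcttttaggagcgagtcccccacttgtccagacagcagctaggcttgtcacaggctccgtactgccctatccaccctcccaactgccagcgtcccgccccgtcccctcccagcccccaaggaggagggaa
Of these 3 motifs only CCAAT matched in the 4 windows, with 3 matches in Adipoq, all near the start, and 1 in Pltp. Over all 32851 RefSeq windows of this length 33.8% hold CCAAT, 12.4% TATAAA and 14.0% AGGTCA. Windows were found for 7 of the 8 genes, 10 windows in all, of which 3 held CCAAT, 2 TATAAA and 1, that of Nrg4, AGGTCA. Also searched on both strands were GGGCGG, the E-box CACGTG, the cyclic AMP response element TGACGTCA and the C/EBP-type motif TTNNGNAA. No motif contains another. TTNNGNAA matched in 5 of the 10 windows, those of Adipoq and Pltp among them, where 36.8% of all windows hold it. GGGCGG matched in 2, that of Pltp among them, where 32.7% of all windows hold it, and neither motif is in capitals above. CACGTG and TGACGTCA had no match in the 10 windows, where 6.02% and 1.55% of all windows hold them. The windows of Retn and Cfd held no match to any of the 7 motifs.

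Over 8 lists of related genes 172 genes were followed beside the 8, of which 40 were tested. Of these 6 rose and 5 fell, with a median log2 change of -0.04, where 18.1% of all tested genes were called higher and 15.1% lower. Receptors and partners of these proteins were sparsely read. Of 25 such genes, 11 had reads and 3 were tested, and none of the 3 was called by edgeR (1 at an unadjusted p under 0.05) or by DESeq2. Adipor2 had 14.3 ± 3.12 CPM in the cold and 20.7 ± 9.22 CPM in control (log2 change -0.48 ± 0.34, adjusted p = 0.307), and Adipor1 2.87 ± 1.23 CPM in the cold and 4.44 ± 2.70 CPM in control (-0.50 ± 0.54, adjusted p = 0.507). Gstk1, also known as DsbA-L, which aids the assembly of adiponectin, had 107 ± 7.30 CPM in the cold and 71.2 ± 14.7 CPM in control (0.60 ± 0.22, adjusted p = 0.0584). Gstk1 was called higher by edgeR on library totals (0.66, adjusted p = 0.0409) and on flow cell 1 alone (0.61, adjusted p = 0.0457), and its change was 0.30 with protein-coding transcripts alone. The neuregulin receptors Erbb3 and Erbb4, the Rbp4 receptor Stra6 and the haptoglobin receptor Cd163 had no reads, nor had Ttr, the plasma partner of Rbp4. Of the 24 found in the annotation 13 had no reads, and in 11 of the 13 the longest coding transcript exceeds 3000 nucleotides. The part of transcript length in these zeros was not tested.

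In the complement list 10 of 19 genes had reads, and the single tested one, Cd59a, was not called by edgeR or DESeq2 (-0.07 ± 0.24, adjusted p = 0.847). C3, the central protein that the factor D cascade acts upon, had 9, 3 and 3 reads in cold libraries 4, 11 and 15 and 0 in each control library. Its cold mean was 1.67 CPM, and at these read numbers it was not tested. Cfb, the substrate of factor D, had 1 read in cold and 1 in control libraries.

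In lipoprotein handling and lipid transfer, the field of Pltp and Apoe, 7 of 24 genes were tested, of which 3 rose and 0 fell, with a median log2 change of 0.64, against 18.1% higher, 15.1% lower and a median of 0.04 over all tested genes. The 3 were Lpl, which frees fatty acids from lipoproteins (17887 ± 1486 CPM in the cold, 4637 ± 1248 CPM in control), Cd36, a fatty acid transporter (708 ± 99.9 CPM in the cold, 344 ± 61.2 CPM in control), and Gpihbp1, which anchors lipoprotein lipase (836 ± 70.1 CPM in the cold, 494 ± 74.4 CPM in control). Angptl8, a secreted regulator of lipoprotein lipase, had 12.0 ± 7.85 CPM in the cold and 42.9 ± 31.4 CPM in control and did not pass (-1.77 ± 0.60, adjusted p = 0.0506), though it was called lower under 6 of 14 alternatives, among them DESeq2 (-1.82, adjusted p = 0.00264). Its change was -1.07 without control 9 and -2.39 without cold 11.

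Acute phase proteins and metal carriers, the class that Hp belongs to, had only 3 tested genes of 17, of which 2 fell, where 15.1% of all tested genes were called lower. Orm1, an acute phase glycoprotein, had 204, 226 and 141 CPM in cold libraries 4, 11 and 15, against 387, 410 and 514 CPM in control libraries 2, 9 and 14 (-1.20 ± 0.23, adjusted p = 0.00236). Mt2, a metallothionein, fell to 567 ± 62.0 CPM in the cold, against 1295 ± 317 CPM in control (-1.19 ± 0.21, adjusted p = 0.00153), while its relative Mt1 had 13945 ± 265 CPM in the cold and 16063 ± 2943 CPM in control (-0.20 ± 0.15, adjusted p = 0.318). In retinoid handling, the field of Rbp4, none of 4 tested genes was called by edgeR (1 at an unadjusted p under 0.05) or by DESeq2. Rarres2, the adipokine chemerin, had 50.2 ± 13.5 CPM in the cold and 49.7 ± 16.9 CPM in control (0.03 ± 0.31, adjusted p = 0.958), with a sign that turned under 5 alternatives.

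Of 56 other secreted factors of brown fat 37 had reads and 18 were tested, of which 2 rose and 3 fell, with a median log2 change of -0.10, near the shares over all tested genes. Grn, the growth factor precursor progranulin, rose to 57.4 ± 5.71 CPM in the cold, against 24.6 ± 3.10 CPM in control (1.23 ± 0.23, adjusted p = 0.00222), and Psap, the lysosomal and secreted protein prosaposin, rose by 0.56 ± 0.20 (adjusted p = 0.0476). Lgals1, a secreted galectin, fell to 23.3 ± 5.65 CPM, against 112 ± 56.8 CPM in control (-2.27 ± 0.35, adjusted p = 0.000689), and Gpx3, the plasma glutathione peroxidase, to 4768 ± 119 CPM, against 7528 ± 1166 CPM in control (-0.66 ± 0.15, adjusted p = 0.00580). S100b fell by 0.69 ± 0.23 (adjusted p = 0.0407). The calls of Psap and S100b were each lost under 7 of 14 alternatives. Leptin (Lep) had 1 read, in control, and Fgf21 had none.

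Among regulators of adipokine genes 6 of 18 were tested and 1, the transcription factor Klf9, rose, to 20.3 ± 4.57 CPM in the cold, against 10.5 ± 1.98 CPM in control (0.95 ± 0.29, adjusted p = 0.0271), a call lost under 7 of 14 alternatives. Pparg, the nuclear receptor that drives adipocyte genes, had 5.31 ± 1.495 CPM in the cold and 5.58 ± 3.34 CPM in control (0.07 ± 0.46, adjusted p = 0.925), and Cebpa 10.6 ± 2.71 CPM in the cold and 15.3 ± 9.92 CPM in control (-0.50 ± 0.46, adjusted p = 0.438). The Cebpa change was 0.12 without control 14 (adjusted p = 0.891), while without control 2 it was -0.99 and called lower (adjusted p = 0.0376). In the list of 20 family relatives of the 8 genes 3 were tested, the adiponectin-like C1qtnf9 and C1qtnf12 among them, and 0 were called by edgeR (1 at an unadjusted p under 0.05) or by DESeq2.

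**Figure D5:**
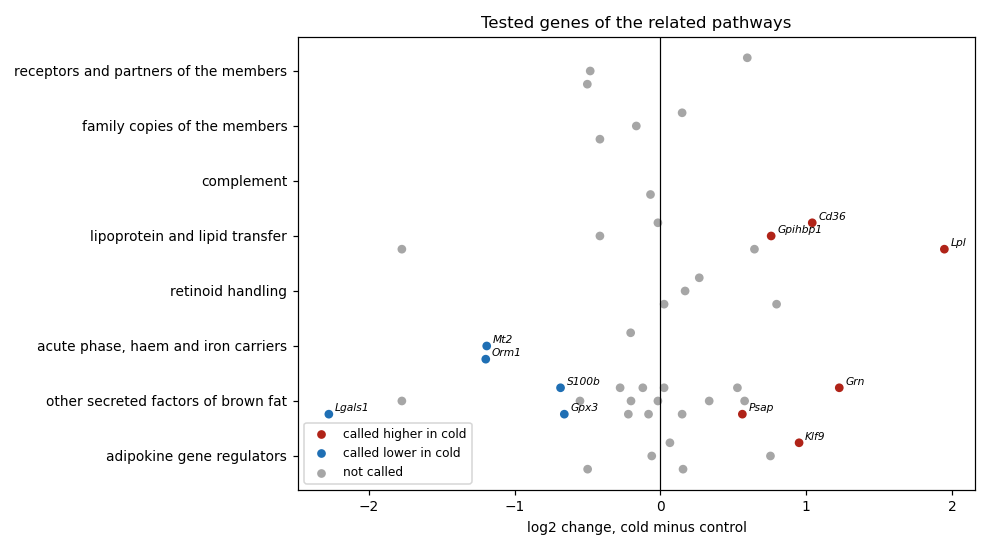
Points are the tested genes of 8 related lists by log2 change, cold minus control, in red where called higher, blue where called lower and grey where not called. Lpl, at 1.95, and Lgals1, at -2.27, lie farthest from 0, and genes in more than 1 list are drawn in each.

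Genes whose levels ran most like each of the 6 better counted members were sought among 955 tested genes with a mean of at least 32 CPM, by the root mean square distance of centred log2(CPM + 1) over the 6 libraries. Nearest to Adipoq were 0610012G03Rik and Dynlrb1, a dynein light chain (distances 0.105 and 0.107, where the median gene lay at 0.552). Hnrnpm and Calr were nearest to Retn (0.127 and 0.203, median 0.708), and Gstm1 and Vim to Hp (0.0981 and 0.192, median 0.720). Pgam1 and Coq7 came nearest to Cfd (0.134 and 0.150), Ehd2 and Glul to Pltp (0.291 and 0.338), and Hsd17b10 and Rpl11 to Apoe (0.119 and 0.180).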

How the data were processed

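The deposited files give raw counts of reads per Ensembl transcript, 1 file for each flow cell of a library. Reads were aligned with minimap2 to GRCm38, per the submitters' processing notes, and the sources used here do not give how multiply matching reads were placed. Transcripts not listed were taken as 0. Of 14693 transcript identifiers 14671 matched GENCODE M21 with the version dropped, and the other 22 held at most 0.00433% of a library. Counts were summed over flow cells and, for genes, over transcripts.

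Differences came from edgeR 4.0.16 (R 4.3.3), fitted per gene and per transcript (filterByExpr at a minimum count of 10, TMM, robust quasi-likelihood F test), and transcript usage with diffSpliceDGE. Each SE was derived as the size of the log2 change over the root of its F statistic. DESeq2 1.42.0, totals alone, other count filters, each library left out, equal depth, single flow cells and protein-coding transcripts alone were alternatives. The fits were tested on simulated data. Mouse numbers are not shared between groups, and no covariate was fitted. The 8 genes, the lists and the tests were chosen with earlier results of these data known. List genes were named by smallest p, up to 5 per list, or for a direct role with a member.

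Libraries of a group differed in 19.7 to 37.9% of genes with 20 or more reads (exact binomial test, adjusted p under 0.05), flow cells of a library in at most 0.175% and in none of the 8 genes. Between libraries of the same group 3 to 6 of the 8 genes differed, against 6 to 8 between libraries of different groups. PCR copies are not independent molecules, so floors cover counting error only. By blastn 2.17.0 (at least 90% identity over at least 100 bases) 3 members matched other genes: Nrg4 and Pltp their overlapping neighbours, and Retn genes with at most 1 read each.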

Additional observations from a re-analysis of the deposited data

How the results depend on the processing

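Each of the 8 genes had the same direction under every alternative run that could test it. Adipoq, Hp and Pltp were called lower under all 14. Rbp4 was called lower under all 10 in which it was tested. In the main fit it passed the count filter only through control, so agreement among runs with that filter is no support. Nrg4 and Rbp4 were not tested under 4 of the 14, among them the minimum count of 30, equal depth and flow cell 1 alone, so for them depth sets what can be said. The call of Nrg4 was lost with DESeq2 (-1.42), and that of Apoe with no count filter (-0.66). Cfd was called with totals alone (0.60), no count filter (0.65) and flow cell 2 alone (0.53). Members called higher were 2 in these 3 settings. With 1 library left out, members called higher were 0 to 2 and members called lower 5 to 6, Retn ranged from 0.81 to 1.24, Cfd from 0.36 to 0.69 and Apoe from -0.97 to -0.61. Genes called ran from 498 to 708 and transcripts from 611 to 889, against 695 and 912. For transcript usage 8 genes were called, 4 at equal depth and 2 to 7 with 1 library left out. The cause of these moves was not tested. With no count filter the median change of all genes lay 0.12 higher.

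Some list genes that were not called turned sign. C1qtnf12 was -0.0283 on flow cell 2 alone and -0.0244 to 0.33 with 1 library left out. C1qtnf9 ranged from -0.68 to 0.21, Cebpa from -0.99, where it was called lower, to 0.12 and Dhrs4 from -0.0177 to 0.29 with 1 library left out. Cd59a was 0.0496 with no count filter, 0.0305 on flow cell 2 alone and -0.24 to 0.0758 with 1 library left out. Cebpb was 0.00661 on library totals, 0.0603 when unfiltered and -0.44 to 0.23 with 1 library left out. Rarres2 was -0.00153 with DESeq2, -0.0132 at equal depth, -0.0991 on flow cell 1 alone and -0.26 to 0.19 with 1 library left out. No paired analysis was possible because the groups share no mouse number.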
